A study of Mus musculus with 36 samples.

Results

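Cxcl1, Cxcl2, Cxcl3 and Cxcl5 encode secreted CXC chemokines that attract neutrophils, and their RNA was followed in enteric glial cells (EGCs), the glia of the gut's own nervous system. The 4 genes were chosen by name, as the 4 rows of these names among the 43472 genes of the count table. The table holds 36 libraries of 3′ mRNA sequencing, with 4 libraries in each of 9 groups, from wild-type mouse EGCs grown out of embryonic neurospheres. EGCs were left unstimulated, or received medium conditioned by cells of healthy colon (H-CM) or by cells of MC38 colon tumors grown in the colon wall (tumor microenvironment conditioned medium, TME-CM), and were collected at 6 h, 12 h or 24 h. All 9 groups share the WT genotype. The labels do not say whether the 4 libraries of a group came from separate cultures, so p-values measure the spread between these libraries, which may be technical.

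CXC chemokines with a glutamate-leucine-arginine motif ahead of their first cysteine pair, as in these 4, bind the receptor CXCR2 and draw neutrophils along a gradient. Their genes lie side by side in the mouse genome and are known as fast targets of interleukin-1, tumor necrosis factor and Toll-like receptor signals, which act through the transcription factor NF-κB. Their messages are also known for short lives, set in part by AU-rich elements in the 3′ untranslated region.

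On GRCm38 (mm10), with the GENCODE vM21 annotation, the 4 genes lie on the plus strand of chromosome 5 within 146579 bases (chr5:90759360-90905938). Cxcl5 comes first (chr5:90759360-90761624), followed by Ppbp and Pf4, Cxcl3 (chr5:90786103-90789600), Cxcl15, Cxcl1 (chr5:90891241-90893115) and Cxcl2 (chr5:90903871-90905938). These are the only 7 protein-coding genes of the interval. No exon of the 4 genes overlaps an exon of another gene. Of the 351 stretches of 50 bases in the last 400 bases of each gene's coding transcripts, 0 occurred in a transcript of another gene, for each of the 4 genes.

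The stretch ahead of the start is shown for the 3 genes that had an entry in the RefSeq promoter table (GRCm38.p6), because all 3 share a run of 11 letters close to the start, the longest that their windows have in common. Each begins 20 bases before these letters and ends ahead of the first base that RefSeq or GENCODE gives to the gene, on the plus strand. Capitals mark this run, GGGAATTTCCC, a sequence of the type bound by NF-κB, and ATAAAAG, a sequence of the TATA box type.
Cxcl1, chr5:90891154-90891240: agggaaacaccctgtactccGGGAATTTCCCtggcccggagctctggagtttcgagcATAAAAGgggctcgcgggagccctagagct
Cxcl2, chr5:90903782-90903870: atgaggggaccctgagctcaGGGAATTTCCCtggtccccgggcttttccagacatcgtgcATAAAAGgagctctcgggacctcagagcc
Cxcl3, chr5:90786008-90786100: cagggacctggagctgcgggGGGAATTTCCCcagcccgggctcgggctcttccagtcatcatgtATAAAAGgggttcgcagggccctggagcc

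GGGAATTTCCC began 71, 97 and 73 bases before the RefSeq start of Cxcl1, Cxcl2 and Cxcl3. On both strands it was found in 14 of the 32851 RefSeq promoter windows of 300 bases (0.0426%), these 3 among them. ATAAAAG was found in 5.42% of all windows and in those of Cxcl1, Cxcl2 and Cxcl3. TGANTCA and TTGCNNAA were also searched and were in none of these 3 windows, against 7.81% and 10.8% of all windows. In the 3′ untranslated region, read on the transcript strand, ATTTA occurred 7 times in Cxcl1 (592 bases), 11 times in Cxcl2 (1494 bases), 5 times in Cxcl3 (645 bases) and 5 times in Cxcl5 (1111 bases). Among genes whose 3′ untranslated region was 0.8 to 1.2 times as long, at least as many ATTTA were found in 0.517% for Cxcl1, 0.771% for Cxcl2, 3.35% for Cxcl3 and 12.9% for Cxcl5. These matches describe letters, and binding or decay was not measured here.

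Library totals ran from 13518 to 7552509 counts. The smallest, H-CM replicate 4 at 6 h, held 3908 detected genes, and 3 counts in it equal 110 CPM (counts per 1000000 scaled counts of a library), so a count of 0 there says little. The next smallest, unstimulated replicate 3 at 6 h, held 256453 counts, and 3 counts in it equal 15.7 CPM. Yam1 took 11% to 48.6% of all counts. At 6 h that share was 11% to 14.2% in 3 of 4 TME-CM libraries and 37.8% in the other, against 43.9% to 48.6% in 3 of 4 H-CM libraries, and its part in the 6 h results was not tested beyond leaving Yam1 out of the fit, which changed no count of chemokine genes called between media at 6 h. Levels are given in CPM on library sizes scaled with TMM over all 36 libraries. QuantSeq reads come from 3′ ends, so a level counts 3′ ends and is not divided by transcript length.

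Cxcl1, the mouse gene also known as KC, was high in EGCs under TME-CM at all 3 times. In TME-CM libraries its level was 417, 168, 553 and 580 CPM at 6 h, 379, 230, 339 and 605 CPM at 12 h, and 241, 156, 173 and 274 CPM at 24 h. In H-CM libraries it was 49.5, 21.1, 13.3 and 0 CPM at 6 h, 67.4, 29.7, 22.3 and 21.8 CPM at 12 h, and 35.2, 10.7, 7.52 and 10.9 CPM at 24 h. Every TME-CM library stood above every H-CM library of the same time, by at least 3.39-fold between the nearest pair at 6 h, 3.41-fold at 12 h and 4.42-fold at 24 h. In bulk samples, fewer cells making a message and less message per cell cannot be told apart.

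Unstimulated EGCs held 13.9 ± 6.15 CPM of Cxcl1 at 6 h (SD, n = 4), 0.913 ± 0.732 CPM at 12 h and 1.59 ± 1.23 CPM at 24 h. H-CM and unstimulated levels overlapped at 6 h, and at 12 h and 24 h each H-CM library was above each unstimulated one. Cxcl1 was higher in TME-CM than in H-CM by 4.01 ± 0.55 on the log2 scale at 6 h (SE), 3.47 ± 0.39 at 12 h and 3.71 ± 0.48 at 24 h. The adjusted p-values were 0.000281, 0.000159 and 0.000893 (edgeR's quasi-likelihood test, adjusted over all genes tested). Cxcl1 passed the test at all 3 times with any 1 of the 8 libraries left out, and without H-CM replicate 1 the difference was larger, 4.69 at 6 h and 4.49 at 24 h.

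Cxcl2, also known as MIP-2, stood highest early. Its TME-CM levels were 480, 157, 539 and 1055 CPM at 6 h, 244, 88.2, 220 and 344 CPM at 12 h, and 82.9, 26.8, 47.1 and 91.6 CPM at 24 h. H-CM levels were 36.4, 3.69, 7.76 and 0 CPM at 6 h, 32.8, 13.5, 6.15 and 7.88 CPM at 12 h, and 6.17, 3.56, 1.09 and 3.46 CPM at 24 h. Unstimulated EGCs held 5.38 ± 4.67 CPM at 6 h (SD, n = 4), 0.713 ± 0.702 CPM at 12 h and 0.853 ± 0.602 CPM at 24 h. TME-CM libraries were above H-CM and unstimulated libraries at every time, with no overlap.

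Cxcl2 was higher in TME-CM than in H-CM by 3.93 ± 0.55 on the log2 scale at 12 h (SE; adjusted p = 0.00202 in edgeR's quasi-likelihood test) and by 4.22 ± 0.48 at 24 h (adjusted p = 9.69e-05). Without H-CM replicate 1 the 12 h difference was 4.60. At 6 h the difference was 5.25 ± 1.11 and did not pass (adjusted p = 0.187, unadjusted p = 0.000507). This 6 h call depended on the model, since it passed with 5 other fits, among them one with only the 8 libraries compared (adjusted p = 0.0159 in edgeR's quasi-likelihood test), and without H-CM replicate 4 the difference was 5.25 with an adjusted p of 0.399. The Cxcl2 difference from unstimulated EGCs at 6 h, 7.23 ± 1.21 on the log2 scale (adjusted p = 0.0271), passed without TME-CM replicate 2, TME-CM replicate 4 or unstimulated replicate 4 and was lost without any of the other 5 libraries, with adjusted p-values of 0.0509 to 0.179. Its size ran from 6.40 without unstimulated replicate 4 to 8.36 without unstimulated replicate 2.

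Cxcl5, also known as LIX, stood highest late. TME-CM levels were 89.6, 31.5, 47.5 and 163 CPM at 6 h, 188, 139, 207 and 234 CPM at 12 h, and 217, 116, 168 and 293 CPM at 24 h. H-CM levels were 29.1, 2.63, 9.98 and 73.6 CPM at 6 h, 77.9, 21.3, 5.24 and 9.49 CPM at 12 h, and 38.0, 6.31, 3.6 and 3.95 CPM at 24 h. TME-CM and H-CM libraries overlapped at 6 h, where the 73.6 CPM came from 2 counts in the smallest library, and were apart at 12 h and 24 h.

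Unstimulated EGCs held 13.7 ± 13.0 CPM of Cxcl5 at 6 h (SD, n = 4), 0.50 ± 0.235 CPM at 12 h and 0.395 ± 0.257 CPM at 24 h. The 6 h mean includes 31.4 CPM from 6 counts in the shallow replicate 3. Pooled over the 4 libraries, the 6 h level was 4.51 CPM. Cxcl5 was higher in TME-CM than in H-CM by 3.91 ± 0.69 on the log2 scale at 24 h (SE; adjusted p = 0.00866 in edgeR's quasi-likelihood test). The difference was 2.26 ± 1.02 at 6 h (adjusted p = 0.804) and 2.78 ± 0.66 at 12 h (adjusted p = 0.0657), neither of which passed. The 12 h call depended on the model, since with every library kept Cxcl5 passed by DESeq2's Wald test (adjusted p = 0.0130), on library totals without TMM (adjusted p = 0.0310) and with no filter on low counts. It also depended on 1 library. Without H-CM replicate 1, whose 77.9 CPM was the highest of its group, the 12 h difference was 3.99 (adjusted p = 1.98e-06 in edgeR's quasi-likelihood test). At 24 h it was 5.41 without H-CM replicate 1, and a fit with only the 8 libraries compared gave an adjusted p of 0.0508.

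Cxcl3, the close relative of Cxcl2, was nearly absent. Its counts were 0 in all 12 unstimulated and all 12 H-CM libraries. In TME-CM libraries it had 0, 0, 0 and 1 counts at 6 h, 3, 0, 3 and 7 counts at 12 h, and 11, 0, 6 and 4 counts at 24 h. Pooled over the 4 libraries, TME-CM held 0.80 CPM at 12 h and 0.914 CPM at 24 h. Against the level of 3 counts over the H-CM group, that is at least 5.51-fold higher at 12 h and at least 6.82-fold higher at 24 h, a bound that covers counting error only. Cxcl3 had too few counts to pass the filter of the reported fits, so 3 of the 4 genes were tested there between media. Its sparse counts did enter the fits with no filter and the comparisons of ratios within a library.

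**Figure D1:**
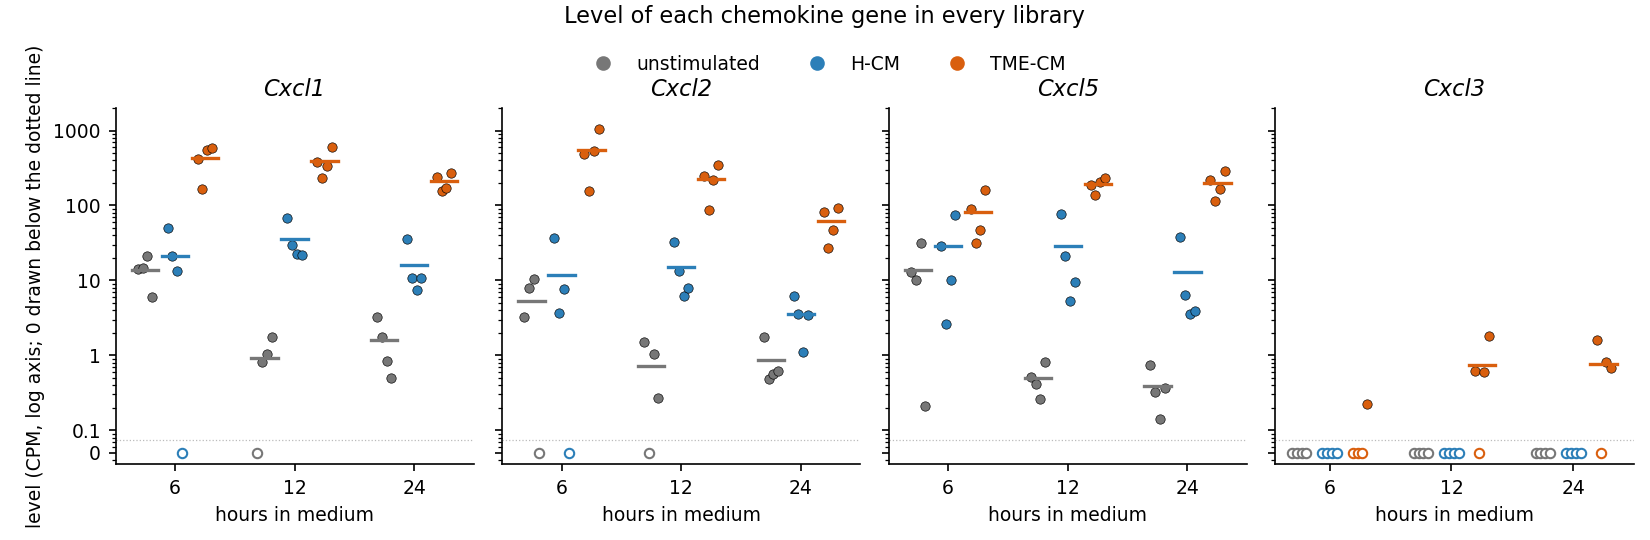
Level of Cxcl1, Cxcl2, Cxcl5 and Cxcl3 in each library (points) by hours in medium, in CPM on a log axis, with group means as lines and libraries with 0 counts as open points below the dotted line. TME-CM libraries (orange) lie above H-CM (blue) and unstimulated (grey) libraries for Cxcl1 and Cxcl2 at all 3 times, and Cxcl3 has counts in TME-CM libraries alone.

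Counted over the genes, TME-CM against H-CM passed the test for 1 of 3 tested chemokine genes after 6 h, for 2 of them after 12 h and for all 3 after 24 h, and each was higher. Of all genes tested, 0.0972%, 1.22% and 2.75% were called higher at those times. TME-CM libraries did not overlap H-CM libraries from above for 2, 3 and 3 of the 3 genes, against 3.53%, 3.95% and 5.59% of all genes tested. Against unstimulated EGCs, 2, 3 and 3 of 3 were called higher, beside 0.432%, 2.67% and 4.82% of all genes. At 12 h those differences were 8.35 ± 0.55 for Cxcl1, 8.48 ± 0.80 for Cxcl2 and 8.33 ± 1.01 for Cxcl5 on the log2 scale (SE), with 9.0 for Cxcl1 without unstimulated replicate 4. At 24 h they were 7.24 ± 0.63, 6.33 ± 0.57 and 9.04 ± 1.0 in the same order.

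Healthy medium also raised chemokine RNA, at 12 h and 24 h. H-CM against unstimulated EGCs called 0 of 3 at 6 h by edgeR's quasi-likelihood test, with 0 at an unadjusted p under 0.05 and 0 by DESeq2, where 0% of all genes were called. At 12 h it called 2 of 3 higher, beside 0.354% of all genes, and at 24 h 1 of 3, beside 1.07%. At 12 h Cxcl1 was higher by 4.87 ± 0.54 on the log2 scale (SE; adjusted p = 0.000298) and Cxcl2 by 4.55 ± 0.84 (adjusted p = 0.0391), and Cxcl5 differed by 5.55 ± 1.03 (adjusted p = 0.0531). At 24 h Cxcl1 was higher by 3.52 ± 0.67 (adjusted p = 0.0223), and Cxcl2 differed by 2.11 ± 0.71 (adjusted p = 0.212) and Cxcl5 by 5.13 ± 1.21 (adjusted p = 0.0765). With 1 library left out, the Cxcl2 call at 12 h held only without H-CM replicate 1 or 4, and the other 6 fits gave an adjusted p of up to 0.187. The Cxcl1 call at 24 h was lost without unstimulated replicate 2, 3 or 4 (adjusted p = 0.0765, 0.0821 and 0.0789 in edgeR's quasi-likelihood test), and without H-CM replicate 1 the difference was 2.75. Cxcl5 passed at 12 h without H-CM replicate 1, 3 or 4 and at 24 h without H-CM replicate 1 or 3, and Cxcl2 at 24 h without H-CM replicate 3. These comparisons share the unstimulated libraries with those of TME-CM.

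**Figure D2:**
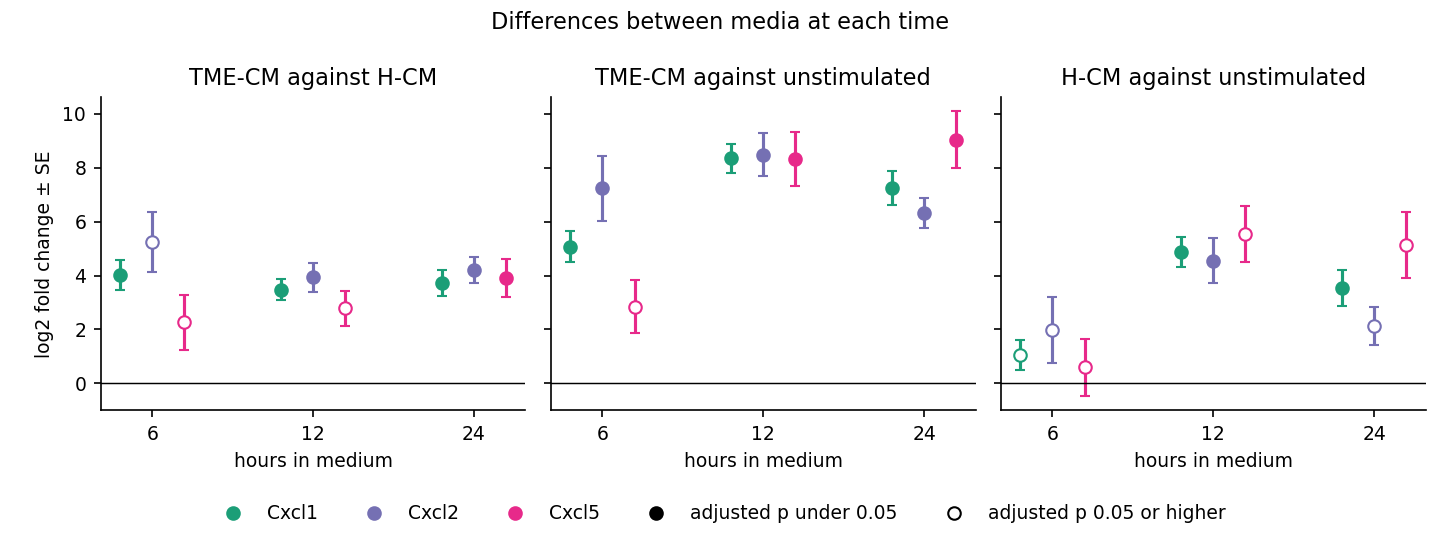
Log2 fold change (points) with its SE (bars) for Cxcl1, Cxcl2 and Cxcl5 in each pair of media by time, with filled points where the adjusted p was under 0.05. All estimates are above 0, and those of TME-CM against unstimulated EGCs at 12 h and 24 h lie between 6.33 and 9.04.

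Over time within TME-CM, Cxcl2 fell, and this was the one change between times that passed for these genes in the model of the 3 times. From 6 h to 24 h Cxcl2 fell by 3.19 on the log2 scale (SE 0.51, adjusted p = 0.00215 in edgeR's quasi-likelihood test), beside 1.25% of all genes called lower. It passed in 8 of 8 fits that left out a library, and on library totals without TMM it fell by 2.81. Under that scaling the median log2 difference of all genes was 0.38, against 0.027 in the reported fit. Cxcl1 differed by -1.06 ± 0.34 (adjusted p = 0.105) and Cxcl5 by 1.22 ± 0.40 (adjusted p = 0.106) over the same interval. Each of these passed when 1 of the 6 h libraries was left out, Cxcl1 without TME-CM replicate 2 (adjusted p = 0.0135) and Cxcl5 without replicate 4 (adjusted p = 0.0313).

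Between neighbouring times no TME-CM difference passed in that model. From 6 h to 12 h, 0 of 3 genes were called by edgeR and 0 by DESeq2, 2 had an unadjusted p under 0.05, and 1.53% of all genes were called. The differences were -0.18 ± 0.34 for Cxcl1, -1.34 ± 0.48 for Cxcl2 and 1.18 ± 0.40 for Cxcl5 on the log2 scale (SE). Cxcl2 passed without TME-CM replicate 2 of 6 h (-1.64, adjusted p = 0.0319 in edgeR's quasi-likelihood test) and Cxcl5 without replicate 4 of 6 h (1.72, adjusted p = 0.0385). From 12 h to 24 h, 0 of 3 were called by edgeR and 0 by DESeq2, 2 had an unadjusted p under 0.05, and 0.0166% of all genes were called. Here the differences were -0.88 ± 0.34 for Cxcl1, -1.85 ± 0.49 for Cxcl2 and 0.05 ± 0.39 for Cxcl5.

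In H-CM, 0 of 3 genes were called between any 2 times by edgeR or DESeq2, and Cxcl2 differed by -2.03 ± 0.74 from 6 h to 24 h on the log2 scale (SE; unadjusted p = 0.0117, adjusted p = 0.116 in edgeR's quasi-likelihood test), where 4.73% of all genes were called. Without H-CM replicate 2 of 6 h it passed (-2.56, adjusted p = 0.0476 in edgeR's quasi-likelihood test). Of H-CM genes at an unadjusted p under 0.05 there were 0 from 6 h to 12 h (2.96% of all genes called), 2 from 12 h to 24 h (0% of all genes called) and 1 from 6 h to 24 h. Whether the TME-CM against H-CM difference itself changed was tested in a model of both media and 2 times. From 6 h to 24 h it changed by -0.31 ± 0.65 for Cxcl1, -1.17 ± 0.96 for Cxcl2 and 1.34 ± 1.12 for Cxcl5 (SE; adjusted p = 0.935, 0.797 and 0.802). For each of the 3 pairs of times, 0 of 3 genes were called by edgeR or DESeq2 and 0 had an unadjusted p under 0.05, and 0.00816%, 0% and 0% of all genes were called for 6 h to 12 h, 12 h to 24 h and 6 h to 24 h. In unstimulated EGCs only Cxcl1 had enough counts for the reported fit. Its difference of 12 h from 6 h, -3.67 ± 0.91, did not pass (adjusted p = 0.0705, beside 0.513% of all genes called). That call depended on the model and on 1 library. By DESeq2's Wald test it passed (adjusted p = 0.000747). In edgeR's quasi-likelihood test it passed with all 36 libraries in one model (adjusted p = 0.0137) or no filter (adjusted p = 0.0439). It also passed there without unstimulated replicate 4 of 6 h (adjusted p = 0.0300). The difference of 24 h from 6 h was -3.09 ± 0.87 and did not pass (adjusted p = 0.0754, beside 1.64% of all genes called). It too passed by DESeq2's Wald test (adjusted p = 0.00158). In edgeR's quasi-likelihood test it passed with all 36 libraries (adjusted p = 0.0113) or without unstimulated replicate 4 of 6 h (adjusted p = 0.0211). DESeq2 called 2 of the chemokine genes for each of these 2 intervals. From 12 h to 24 h Cxcl1 differed by 0.58 ± 0.85, where 0% of all genes were called.

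What changed with time in TME-CM was the make-up of the chemokine counts within each library, a quantity that no scaling between libraries can move. Cxcl2 gave 48.7%, 44.1%, 47.3% and 58.7% of the summed counts of the 4 genes at 6 h. It gave 30.1%, 19.3%, 28.7% and 29.0% at 12 h, and 15.3%, 8.99%, 12.1% and 13.9% at 24 h. The 3 times did not overlap, and Cxcl2, which was ahead of Cxcl1 in 2 of 4 libraries at 6 h, was the least of the 3 abundant messages in all 4 at 24 h.

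The share of Cxcl5 took the opposite course. It was 9.08%, 8.82%, 4.17% and 9.06% at 6 h, 23.2%, 30.4%, 26.9% and 19.8% at 12 h, and 40.0%, 38.8%, 43.3% and 44.4% at 24 h, again with no overlap. Shares of one sum are tied, so a share can grow while the level does not. The level of Cxcl5 in TME-CM was 192 ± 40.2 CPM at 12 h and 198 ± 75.3 CPM at 24 h (SD, n = 4). The share of Cxcl1 stayed within 32.3% to 52.2% over the 12 libraries, with means of 42.5% ± 7.34, 48.1% ± 3.17 and 45.7% ± 4.59 (SD, n = 4). That of Cxcl3 was at most 0.292%.

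**Figure D3:**
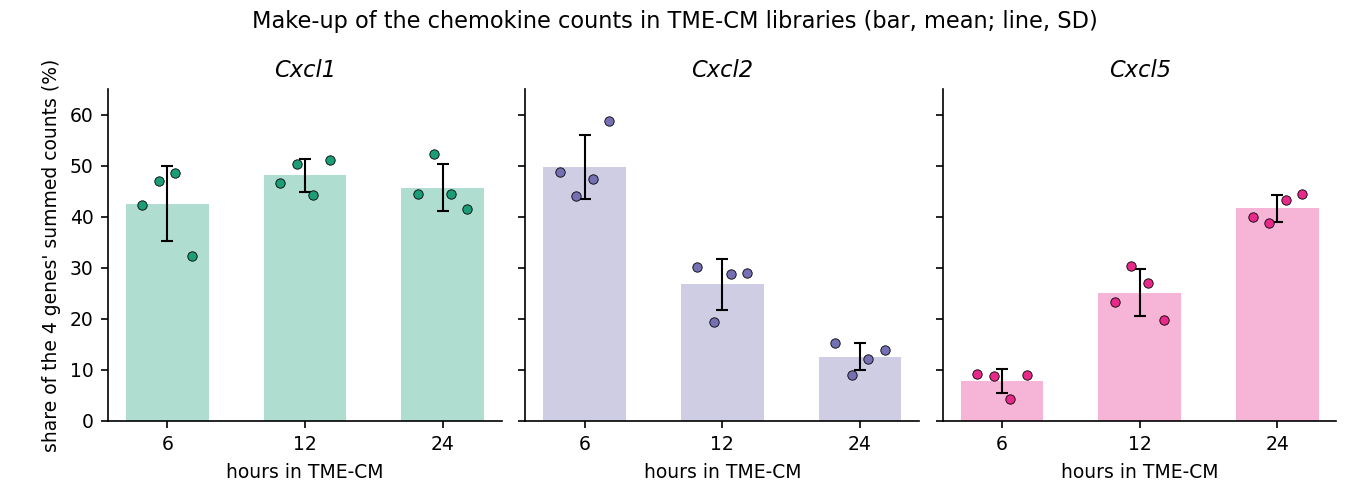
Share of each gene in the summed counts of Cxcl1, Cxcl2, Cxcl3 and Cxcl5 (percent; points, libraries; bars, means; lines, SD; n = 4) in EGCs under TME-CM by hours in medium. Cxcl2 goes from a mean of 49.7% to 26.8% and 12.6%, Cxcl5 from 7.78% to 25.1% and 41.6%, and Cxcl1 keeps near the middle.

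The ratio of Cxcl5 to Cxcl2 in a TME-CM library, as log2 of counts with 0.5 added to each, went from -2.73 ± 0.54 (6 h) over -0.09 ± 0.53 (12 h) to 1.75 ± 0.30 (24 h; SD, n = 4). It thus moved by 4.48 from 6 h to 24 h, while the ratio of Cxcl5 to Cxcl1 moved by 2.36 and that of Cxcl1 to Cxcl2 by 2.11. The 4 libraries of each time were apart from those of each other time for all 3 ratios, and each of the 9 comparisons had an exact permutation p of 0.0286, two-sided, the smallest that 4 against 4 libraries can give. Adjusted over the 18 comparisons made, which include the sparse counts of Cxcl3, this was an adjusted p of 0.0468 in the exact permutation test. That side of 0.05 rests in part on 2 Cxcl3 comparisons, since with 0.1 added in place of 0.5 none of the 18 passed. Under H-CM the log2 ratio of Cxcl1 to Cxcl2 went from 0.90 ± 1.06 (6 h) over 1.37 ± 0.36 (12 h) to 2.09 ± 0.61 (24 h), values on few counts that were not tested.

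In TME-CM the same replicate numbers were lowest and highest from gene to gene and from time to time, and in H-CM mostly the same number was highest. A number stands for a separate library at each time, and the labels do not say what libraries of the same number share. Of the 9 gene and time combinations of Cxcl1, Cxcl2 and Cxcl5 in TME-CM, replicate 2 was lowest in 9 and replicate 4 highest in 9. In H-CM, replicate 1 was highest in 8 of 9, and replicate 3 was lowest in 5. In unstimulated EGCs no replicate number was lowest or highest in more than 4 of 9. TME-CM replicate 2 also had the highest Yam1 share of its group at each time, 37.8%, 35% and 35.1%. Its library total was the smallest of its group at each time, 1321201, 2756415 and 2895248 counts. The part of these in its chemokine levels was not tested.

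Among the other genes of the stretch of chromosome 5, of which 12 were listed, 6 had enough counts at 24 h. TME-CM raised 2 of these over H-CM at 24 h, Ereg and Ppbp, and 1 of 4 tested at 12 h, Ereg, while 0 of 2 passed at 6 h by edgeR's quasi-likelihood test (1 at an unadjusted p under 0.05, 0 by DESeq2). Ppbp, which lies between Cxcl5 and Pf4 and encodes the platelet chemokine CXCL7, another CXCR2 ligand, was at 3.35 ± 1.11 CPM in TME-CM and 0.479 ± 0.407 CPM in H-CM at 24 h (SD, n = 4). It rose by 2.62 ± 0.70 on the log2 scale (SE; adjusted p = 0.0272 in edgeR's quasi-likelihood test). Pf4, a platelet chemokine that lacks the neutrophil motif, differed by 1.11 ± 0.35 at 24 h and did not pass (adjusted p = 0.0763). Ereg, the growth factor epiregulin and a gene beyond Cxcl2, was at 32.5 ± 8.37 CPM in TME-CM against 7.63 ± 4.37 CPM in H-CM at 24 h, and rose by 2.15 ± 0.33 (adjusted p = 0.000322). Cxcl15, which lies between Cxcl3 and Cxcl1, had at most 1 count in any library.

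**Figure D4:**
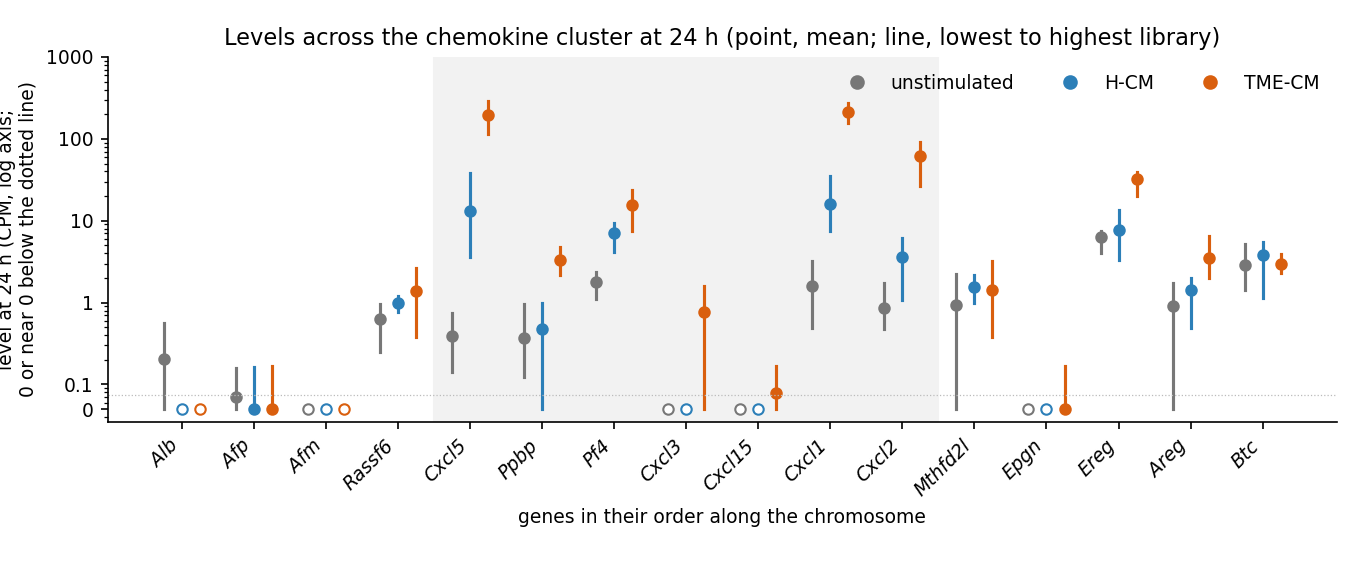
Mean level at 24 h (points, CPM on a log axis; lines, lowest to highest library; n = 4) of genes in their order along chromosome 5, with the 7 chemokine genes shaded and open points for groups at 0. Cxcl5, Cxcl1 and Cxcl2 stand highest in TME-CM (orange), with Ppbp, Pf4, Cxcl3 and Cxcl15 far lower between and beside them.

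The receptors had few or no counts in these cells. Cxcr1 had 0 counts in all 36 libraries, Cxcr2 at most 9 counts in a library, and Ackr1, a scavenging receptor, at most 16, so 0 of the 3 entered a test. Of the 3 listed growth factors of myeloid cells, Csf3, the granulocyte growth factor G-CSF, rose at 12 h by 5.05 ± 1.19 on the log2 scale over H-CM (SE; adjusted p = 0.0282 in edgeR's quasi-likelihood test). Csf3 was at 9.92 ± 5.28 CPM in TME-CM and 0.336 ± 0.671 CPM in H-CM at 12 h (SD, n = 4), and was too low to be tested at 24 h. DESeq2 called 0 growth factors at 12 h. Csf2 reached at most 14 counts in a library.

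Of 15 receptors and adaptors upstream of NF-κB, TME-CM raised 2 over H-CM at 12 h and 3 at 24 h, and lowered 0 at either time. Il1rap, the co-receptor for interleukin-1, was higher at 12 h by 1.18 ± 0.30 on the log2 scale and at 24 h by 1.31 ± 0.26 (SE; adjusted p = 0.0460 and 0.00306 in edgeR's quasi-likelihood test). The signaling receptor Il1r1 was higher at 24 h by 1.57 ± 0.20 and Tlr2 by 2.49 ± 0.58, and Irak3, an inhibitor of the pathway, at 12 h by 2.48 ± 0.55. The list's median difference was 0.41 at 12 h and 0.51 at 24 h.

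Among 12 NF-κB subunits, inhibitors and feedback genes, 3 were higher at both 12 h and 24 h, and 0 were lower. All 3 belong to the inhibitor of κB family. Nfkbia, which holds NF-κB in the cytoplasm, was at 398 ± 35.3 CPM in TME-CM against 197 ± 25.7 CPM in H-CM at 24 h (SD, n = 4), a difference of 1.01 ± 0.12 on the log2 scale (SE). Nfkbiz, a nuclear co-activator, differed by 1.82 ± 0.19 and Bcl3, a nuclear co-regulator, by 2.22 ± 0.31 at 24 h. Of 8 RNA-binding proteins known to act on unstable messages, Zc3h12a and Zfp36l1 were higher at both times, at 24 h by 2.14 ± 0.46 and 0.63 ± 0.11. Zc3h12a encodes the nuclease regnase-1, and Zfp36l1 a protein that binds AU-rich elements. At 6 h 0 genes of these lists passed with edgeR or DESeq2, out of 13 upstream, 9 NF-κB and 7 RNA-binding genes tested, of which 3, 4 and 0 had an unadjusted p under 0.05.

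The genes whose levels followed each chemokine gene best over the 9 group means of log2 CPM were sought among 10085 genes. For Cxcl1 they were Ier3 (Pearson's r 0.988), Tlr2 (0.988) and Cebpd (0.980). For Cxcl2 they were the interferon-inducible chemokine gene Cxcl10 (0.997), Casp4 (0.985) and Ereg (0.981), and for Cxcl5 the monocyte-attracting chemokine genes Ccl7 (0.987) and Ccl2 (0.975), then Cebpd (0.968). The points of each correlation are 9 groups of the same libraries, so these r values only describe. Cxcl10 went from 357 ± 294 CPM at 6 h to 159 ± 87.6 at 12 h and 55.8 ± 23.1 at 24 h under TME-CM (SD, n = 4), an early peak like that of Cxcl2. Ccl7 stood at 349 ± 77.2, 727 ± 221 and 567 ± 72.9 CPM at those times, with its highest mean at 12 h.

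Markers of other cell types were read beside these results. All 7 glial markers had counts in every group, with a sum of 194 to 266 CPM in TME-CM and 222 to 256 CPM in H-CM libraries at 24 h, and 0 of 7 passed the test between these media by edgeR (2 at an unadjusted p under 0.05, 1 by DESeq2). The summed fibroblast markers were higher than those of glia in every group, at 4597 to 5859 CPM in TME-CM and 3468 to 4204 CPM in H-CM at 24 h, where 3 of 5 rose (Dcn, Lum and Pdgfra). Smooth muscle markers summed to 1640 to 2382 CPM in TME-CM, 3160 to 3881 CPM in H-CM and 6829 to 7845 CPM in unstimulated EGCs at 24 h. There 4 of 6 were lower in TME-CM than in H-CM (Acta2, Cnn1, Des and Myh11). Of 2 endothelial markers tested at 24 h, Kdr differed by -1.65 ± 0.30 on the log2 scale (SE; adjusted p = 0.00203 in edgeR's quasi-likelihood test). Of the epithelial and neuronal markers, 0 of 1 and 0 of 5 tested passed by edgeR or DESeq2. In each of these 2 lists 1 had an unadjusted p under 0.05. The fibroblast and smooth muscle markers and Kdr moved with the medium, and their part in the chemokine differences was not tested. Macrophage markers overlapped between media at 24 h, with sums of 69.7 to 340 CPM in TME-CM and 75.1 to 319 CPM in H-CM. Between these media 0 of 8 tested were called by edgeR or DESeq2, with 0 at an unadjusted p under 0.05. Against unstimulated EGCs at 24 h, 1 of 8 was higher in TME-CM and 0 were lower. This was Cd14, by 2.69 ± 0.57 on the log2 scale (SE; adjusted p = 0.00245 in edgeR's quasi-likelihood test).

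The neutrophil markers summed to 26.5 to 43.7 CPM in TME-CM and 7.91 to 12.1 CPM in H-CM at 24 h. There 1 of 3 tested rose, S100a8, which encodes a calcium-binding protein of myeloid cells, by 3.33 ± 0.37 on the log2 scale (SE; adjusted p = 4.89e-06 in edgeR's quasi-likelihood test). Of the 10 listed neutrophil markers, 7 had counts in TME-CM and 7 in H-CM at 24 h. Csf3r and Ly6g were at 0 in both media at that time. Csf3r was at 0 in all 36 libraries, while Ly6g had counts at 12 h in both TME-CM and unstimulated EGCs. Against unstimulated EGCs at 24 h, 2 of 3 tested were higher in TME-CM, Camp and S100a8, and 0 were lower. Camp differed there by 3.07 ± 0.60 (SE; adjusted p = 0.00120 in edgeR's quasi-likelihood test). The order differed at 6 h, where the neutrophil markers summed to 0.82 to 70.5 CPM in TME-CM and 0 to 112 CPM in H-CM. Unstimulated EGCs held 10.4 to 309 CPM at that time, and 0 of 2 tested were called between TME-CM and H-CM. The 12 h sums were 15.4 to 71.9 CPM in TME-CM, 0 to 18.6 CPM in H-CM and 3.28 to 26.7 CPM in unstimulated EGCs. The part of neutrophil RNA in the chemokine differences was not tested. At 12 h the Cxcl1, Cxcl2 and Cxcl5 differences stood with 0 of 8 macrophage (0 at an unadjusted p under 0.05, 0 by DESeq2), 0 of 3 neutrophil (2 and 1), 1 of 5 fibroblast (Dcn) and 2 of 6 smooth muscle markers called (Cnn1 and Myh11).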

How the data were processed

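Per the labels, RNA of EGCs was made into QuantSeq 3′ mRNA libraries. The authors checked reads with FastQC (0.11.7), trimmed them, aligned them to mm10 with HISAT2, discarded reads with several alignments, and counted reads per gene with HT-seq. Which annotation and strand setting were used, and whether reads carried molecular identifiers, is not given in the sources used here. The deposited values are whole-number counts with no normalization, 43472 genes in 36 libraries. Here, edgeR (4.0.16, R 4.3.3) kept genes with filterByExpr (minimum count 10), scaled with TMM and ran its robust quasi-likelihood test with Benjamini-Hochberg adjustment over all genes, threshold 0.05. One model per time held 3 media (12 libraries), one per medium 3 times (12 libraries). A change of the TME-CM effect was an interaction of media and 2 times (16 libraries). The SE is the log2 fold change divided by the square root of F, and fold changes relate to the scaling of each fit. Levels are CPM with TMM over all 36 libraries. Ratios within a library were compared by two-sided exact permutation. DESeq2 (1.42.0), other filters, scalings, models, and left-out libraries were alternatives, and the scripts were tested on simulated data. The genes, lists and tests were chosen with earlier results of these data known. The other genes named include all those of the listed pathway, neighbour and marker genes that passed in TME-CM against H-CM. They also include some near 0, some that did not pass there, and the 3 most alike per chemokine gene among genes whose mean reached 5 CPM.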

Additional observations from a re-analysis of the deposited data

Results flagged for a closer look

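In 4 combinations of a gene and a group, 1 library stood apart from the other 3 by Dixon's 95% criterion. Chance alone meets it in about 1 in 20 such combinations, and the 4 genes were screened in all 9 groups, save combinations with no spread. Cxcl1 was at 35.2 CPM in H-CM replicate 1 at 24 h against 7.52 to 10.9 CPM in the others, and Cxcl5 was at 38.0 CPM in the same library against 3.6 to 6.31 CPM. Without that library the TME-CM against H-CM difference at 24 h was the largest of the leave-one-out range for each gene, 4.49 for Cxcl1 and 5.41 for Cxcl5 on the log2 scale. Cxcl2 was at 1.75 CPM (7 counts) in unstimulated replicate 1 at 24 h against 0.480 to 0.617 CPM. Cxcl3 was at 0.221 CPM in TME-CM replicate 4 at 6 h, which is 1 count, against 0 in the others, a pattern that always meets the criterion.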

How the results depend on the processing

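TME-CM against H-CM and unstimulated EGCs kept its direction for Cxcl1, Cxcl2 and Cxcl5 in all alternatives run. Of the single-gene alternatives to a reported difference, 631 kept direction and call, 52 newly passed, 16 no longer passed and 7 turned the sign of a value that had not passed. Numbers of chemokine genes called moved as follows. For TME-CM against H-CM at 6 h, 1 became 2 with all 36 libraries in one model, DESeq2's Wald test, library totals without TMM (added after seeing the data), no filter, or only the 8 libraries compared. For TME-CM against H-CM at 12 h, 2 became 3 with the Wald test, library totals, no filter or the replicate block, and at 24 h 3 became 2 with only the 8 libraries. For TME-CM against unstimulated EGCs at 6 h, 2 became 3 with all 36 libraries or no filter. For H-CM against unstimulated EGCs at 12 h, 2 became 3 with all 36 libraries, the Wald test, library totals, no filter, only the 8 libraries, the replicate block or without Yam1. For H-CM against unstimulated EGCs at 24 h, 1 became 2 with all 36 libraries, library totals or only the 8 libraries, and 3 with the Wald test, no filter or the replicate block. For unstimulated EGCs at 12 h and 24 h against 6 h, 0 became 1 with all 36 libraries or no filter and 2 with the Wald test. For H-CM at 24 h against 12 h and 6 h, 0 became 1 with no filter. With 0.1 added to the counts, 0 of 18 ratio comparisons passed against 11, and 11 with 1 added.

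Leaving out 1 library gave 2 to 3 genes for TME-CM against H-CM at 12 h, 1 to 3 for H-CM against unstimulated EGCs at 12 h, 0 to 3 at 24 h, 1 to 2 for TME-CM against unstimulated at 6 h, 0 to 1 for TME-CM at 12 h against 6 h, 1 to 2 at 24 h against 6 h, 0 to 1 for H-CM at 24 h against 6 h, and 0 to 2 for unstimulated EGCs at 12 h and at 24 h against 6 h. The log2 differences that turned sign ranged from -0.15 to 1.21 for Cxcl5 in H-CM against unstimulated EGCs at 6 h, from -0.47 to 0.012 for Cxcl1 in TME-CM at 12 h against 6 h (0.047 on library totals), from -0.20 to 0.23 for Cxcl5 in TME-CM at 24 h against 12 h (-0.043 with the block), and from -0.93 to 0.44 for the change of the Cxcl1 effect from 6 h to 24 h.

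In no comparison were the deviations of all 4 same-numbered pairs correlated over 0.1 (the lowest of the 4 ran from -0.16 to 0.06 over the comparisons), so the numbers were not taken to pair the libraries. With the replicate block, TME-CM at 12 h against 6 h gave 2 genes (Cxcl2 lower, Cxcl5 higher), 24 h against 12 h gave 1 (Cxcl2 lower), 24 h against 6 h gave 2, TME-CM against unstimulated EGCs at 6 h gave 1, and 0 ratio comparisons passed, since 4 pairs cannot go below an exact p of 0.125. All 4 correlations were above 0 in 6 comparisons, among them TME-CM at 24 h against 12 h, where 3 were over 0.1, and every library correlated best with its own number for H-CM at 24 h against 12 h only. Over the alternatives that kept all libraries, genes called in TME-CM against H-CM ranged from 2 to 899 at 6 h (9 in the reported fit), 81 to 465 at 12 h (230) and 71 to 896 at 24 h (686), and in TME-CM at 24 h against 6 h from 77 to 1600 (281). Depth limits what H-CM replicate 4 at 6 h can show, where 3 counts equal 110 CPM.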
